A study of Mus musculus with 13 samples.

Results

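The genes described here are 10 markers of macrophages and of the erythroblastic island, Csf1r, Adgre1, Cd68, Mrc1, Vcam1, Cd163, Siglec1, Spic, Hmox1 and C1qa. They were chosen by name, not by a measured value, though with earlier results of these data known. They are 10 of the 19938 genes that could be tested. Each had 1 probe set annotated to it alone, so all 10 were measured. They were followed in femoral bone marrow of C57BL/6 male mice aged 6 weeks, for which the labels name no genetic change, on Affymetrix Mouse Gene 1.0 ST arrays. The controls, with 3 arrays, were compared with phlebotomised mice, from which 500 µL of blood had been drawn behind the eye (retro-orbital puncture). These were sampled at 4 h with 1 array, at 9 h with 3 arrays, and at 12, 15 and 48 h with 2 arrays each. The labels mention no sham puncture for the controls and do not say whether marrow was flushed or taken with bone. The samples are read here as whole femoral marrow with no macrophages sorted, in which cells of bone may be included.

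In the marrow, red cell precursors mature in erythroblastic islands, in which a central macrophage holds erythroblasts on its surface, feeds their growth and engulfs the nuclei they expel. Macrophages of marrow, spleen and liver also clear old red cells, break down the heme and return its iron to the circulation. Blood loss raises erythropoietin and with it the number of maturing erythroblasts, so the comparison asks whether transcripts of the macrophages move as well. In whole marrow, fewer macrophages and less RNA per macrophage cannot be told apart.

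The numbers in the sample titles form a run of 10 arrays and a run of 3 (control replicate 3 and 9 h replicates 1 and 2). Median log2 levels over all probe sets were 6.98 to 7.03 in the larger run and 7.77 to 7.80 in the smaller one, so levels are compared within a run. In the smaller run 39.1% of probe sets gave an identical reading on all 3 arrays, and Vcam1 and C1qa were among them, so their smaller-run values cannot show a difference. These readings still entered the fit over all arrays. For C1qa the 9 h log2 fold change was -0.07 there and -0.15 in the larger run alone. The SE at 48 h was 0.10 for Vcam1 and 0.13 for C1qa, against 0.12 and 0.15 in the larger run alone. The part of equal readings in these SEs was not tested. Several arrays carried transcripts of other tissues. The 4 h array had high small intestine markers (19 of 21 rose, for example Fabp2, 11.47 against 7.62 and 7.12 in the 2 controls of its run) and skeletal muscle markers (log2 summed signal 13.9 against 12.0 and 12.1). Both 48 h arrays had high liver markers (10 of 14 rose, for example Alb, 11.69 and 11.44 against 6.87 and 7.23). On 9 h replicate 1, in the smaller run, Alb was 9.68, against 7.31 on the other 9 h array and 7.74 on the control. The summed signal of muscle markers was also above the 2 larger-run controls on 9 h replicate 3 (12.77) and 48 h replicate 1 (13.03). In the smaller run it was 13.14 on control replicate 3 and 11.93 and 12.7 at 9 h. Some small intestine markers were also higher in the controls than later: 3 of 21 fell at 9 h, 3 at 12 h, 4 at 15 h and 4 at 48 h, when 1, Apoa1, which the liver also makes, rose. A fit without the 4 h array, both 48 h arrays and 9 h replicate 1 kept control replicate 3 and 9 h replicate 3. In that fit again 0 of the 10 genes passed at 9, 12 or 15 h (limma). Beyond it, the part of these transcripts in the results below was not tested. Blood cell markers were present on every array of the larger run, with S100a8 of neutrophils at 13.15 to 13.56, Cd79a of B cells at 11.28 to 11.78 and Klf1 of erythroid cells at 9.96 to 10.90.

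None of the 10 genes passed the test for a change at any time after phlebotomy. A linear model over all genes (limma, Benjamini-Hochberg adjusted p under 0.05 over 19938 genes) gave 7 comparisons and 70 tests of these genes, of which 0 passed, and the lowest adjusted p was 0.145. At an unadjusted p under 0.05 there were 10 of 70. All 70 of the 95% confidence intervals, each for 1 gene and 1 comparison, lay within 1 log2 unit either way, so a change of 2 times or more lay outside every interval. Smaller changes were not always within reach: at 48 h the intervals of 6 of the 10 genes lay within 0.5 log2 units.

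**Figure D1:**
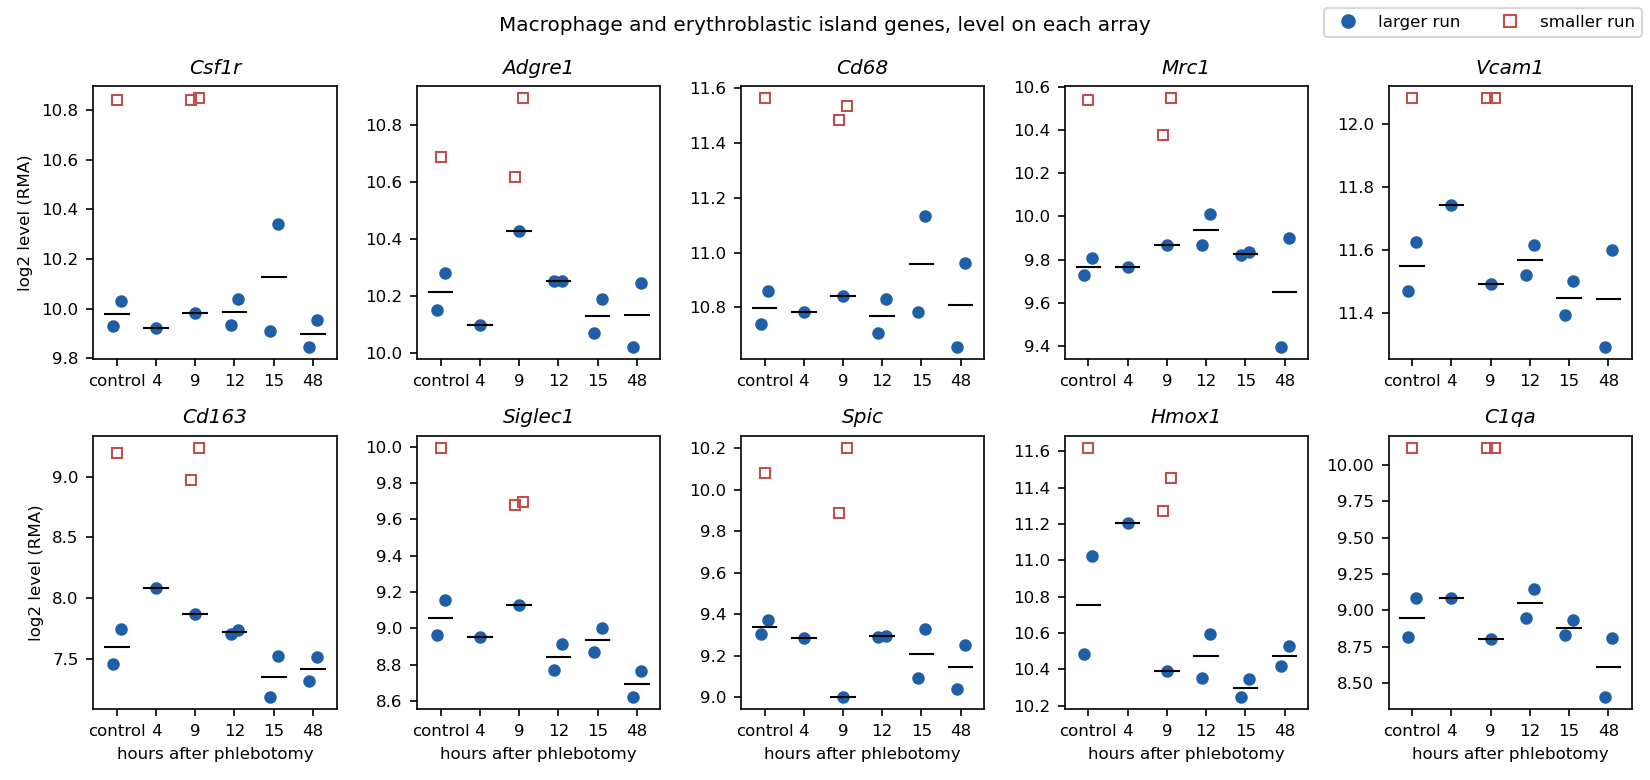
Log2 level (RMA) of the 10 genes on each array, by hours after phlebotomy. Filled circles are arrays of the larger run, open squares arrays of the smaller run and bars the mean of the larger run; each panel has its own axis, which does not start at 0. The smaller run lies above the larger in every panel, and within the larger run most times overlap with the controls.

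Read against all genes, the counts were as follows. At 4 h, 2 of 10 genes had an unadjusted p under 0.05 and 0 an adjusted one, where 15.2% and 1.99% of all genes did. At 9 h, 1 of 10 passed unadjusted (6.12% of all genes) and 0 adjusted (0.0953%). At 12 h the unadjusted count was 1 (13.7% of all genes) and the adjusted count 0 (0.105%). For 15 h it was again 1 (12.5%) and 0 (0.256%). With 12 and 15 h together it was 2 (15.4%) and 0 (0.682%). At 48 h it was 2 (14.0%) and 0 (0.376%), and for 48 h against 12 and 15 h together 1 (18.8%) and 0 (0.828%). Unadjusted counts near these shares of all genes are no result about the macrophage genes.

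**Figure D2:**
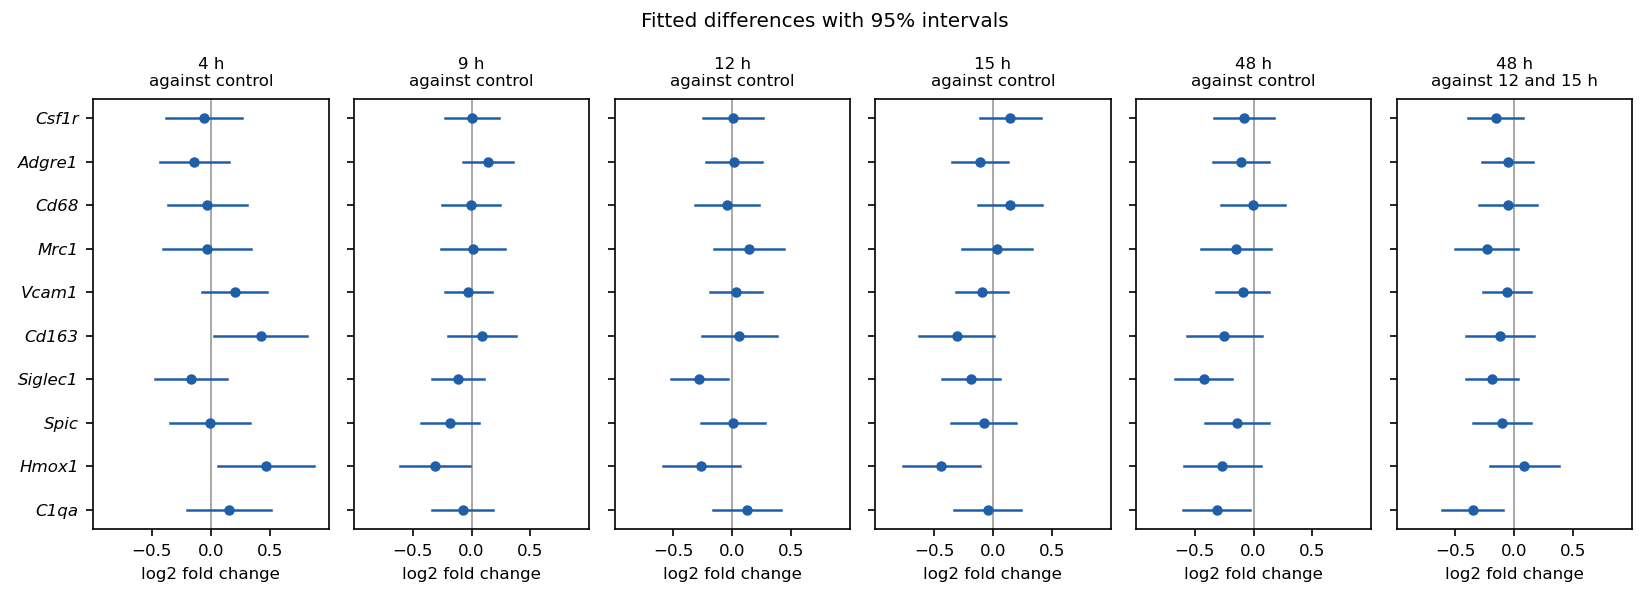
Log2 fold changes (points) with 95% confidence intervals (lines) of the 10 genes at each time against control and at 48 h against 12 and 15 h together, from the model over all genes. No interval reaches 1 log2 unit in either direction, and the points at 48 h against control lie below 0.

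Csf1r encodes the receptor for the growth factor on which macrophages depend. Its levels in the larger run were 10.03 and 9.93 in controls, 9.92 at 4 h, 9.98 at 9 h, 9.93 and 10.04 at 12 h, 9.91 and 10.34 at 15 h, and 9.85 and 9.95 at 48 h. In the smaller run the control stood at 10.84 and the 9 h arrays at 10.85 and 10.84. Only 15 h replicate 2 stood off from the others, while its partner at 15 h lay below both controls. The log2 fold changes against control ran from -0.08 ± 0.12 (SE) at 48 h to 0.15 ± 0.12 at 15 h, with adjusted p-values of 0.807 and 0.620 (limma). The 15 h value was 0.36 without replicate 1 and -0.07 without replicate 2. On that same 15 h array osteoclast markers were high, with a log2 summed signal of 14.14 against 13.31 for the other 15 h array and 13.01 and 13.45 in controls. Osteoclasts share the Csf1r-dependent lineage. Over both 15 h arrays 0 of 11 osteoclast markers passed the test, with a median log2 fold change of 0.40 and 1 below 0 (52.0% of all genes). At an unadjusted p under 0.05, 5 of 11 were higher, where 12.5% of all genes passed in either direction. Without overlap 2 of 11 lay higher (20.3% of all genes). The part of osteoclast transcripts in the Csf1r value was not tested.

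Cd68, a lysosomal membrane glycoprotein of macrophages that osteoclasts also make, had the same high array. It measured 10.74 and 10.86 in controls, 10.78 at 4 h, 10.84 at 9 h, 10.71 and 10.83 at 12 h, 10.78 and 11.13 at 15 h, and 10.66 and 10.96 at 48 h. The smaller run gave 11.56 for the control and 11.54 and 11.49 at 9 h. Every group of the larger run with 2 arrays overlapped the controls, and the log2 fold changes against control lay between -0.05 ± 0.12 at 12 h and 0.14 ± 0.12 at 15 h. Over the 10 arrays of the larger run, Cd68 and Csf1r had the highest Pearson correlation of the 45 pairs of these genes, 0.804. The value is a description over arrays that share a normalization and includes the 15 h array on which both were high.

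Adgre1 encodes F4/80, the surface receptor by which mouse macrophages are most often stained. It measured 10.28 and 10.15 in controls, 10.10 at 4 h, 10.43 at 9 h, 10.25 and 10.25 at 12 h, 10.07 and 10.19 at 15 h, and 10.02 and 10.25 at 48 h. In the smaller run the control was 10.69 and the 9 h arrays 10.89 and 10.62, one above and one below it. Its pooled SD within groups, 0.10, was the smallest of the 10 genes. The log2 fold changes farthest from 0 were 0.14 ± 0.10 at 9 h (adjusted p = 0.840, limma) and -0.14 ± 0.13 at 4 h (adjusted p = 0.676).

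Vcam1 encodes the adhesion molecule by which the island macrophage grips erythroblasts, through the integrin whose alpha chain is Itga4. The Vcam1 level was 11.63 and 11.47 in controls, 11.74 at 4 h, 11.49 at 9 h, 11.62 and 11.52 at 12 h, 11.39 and 11.50 at 15 h, and 11.29 and 11.60 at 48 h. At 12, 15 and 48 h at least 1 array lay within the range of the controls, and all 3 smaller-run arrays had the value 12.08. Fold changes on the log2 scale were 0.20 ± 0.12 at 4 h, with 1 array (adjusted p = 0.486, limma), and between -0.09 ± 0.10 and 0.03 ± 0.10 at the later times. Stromal and endothelial cells also make Vcam1. Their 17 measured markers had a log2 summed signal of 14.4 and 15.0 in controls and 13.9 and 14.3 at 48 h. By mean log2 level, in which each marker counts alike, they were at 9.14 and 9.49 in controls and 8.89 and 9.24 at 48 h, so the groups overlapped. At 48 h against control 0 of 17 passed (median -0.24). Against 12 and 15 h together 16 of 17 were below 0 (44.5% of all genes), with a median of -0.22, and 0 passed. There 7 of 17 lay lower without overlap (12.0% of all genes) and 1 higher (15.4%).

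Itga4, made by erythroblasts among other marrow cells, was 11.50 and 11.69 in controls, 11.44 to 11.56 at 12 and 15 h, and 11.95 and 11.85 at 48 h. Both 48 h arrays lay above all the controls and all the 12 and 15 h arrays of the run. The log2 difference was 0.40 ± 0.08 against 12 and 15 h together, with an adjusted p of 0.0527 (limma), and 0.28 ± 0.09 against control, with an adjusted p of 0.197, so neither passed. The 11 measured erythroid markers were all above 0 at 48 h against control, where 46.5% of all genes lay below 0. Their median was 0.29, and 0 passed. For 3 of the 11 both 48 h arrays lay above both controls, where 24.2% of all genes did so. The mean log2 level of the list was 11.42 and 11.92 in controls and 12.04 and 11.87 at 48 h, so the groups overlapped. Against 12 and 15 h together 1 of the 11 was below 0 (44.5% of all genes), with a median of 0.34, and 0 passed. There 10 of 11 lay higher without overlap (15.4% of all genes). At an unadjusted p under 0.05, 8 of 11 were higher, where 18.8% of all genes passed in either direction. The fitted values of Itga4 and of the erythroid list lay on the same side. Maea, an adhesion protein of erythroblasts and macrophages, had a log2 fold change of -0.07 ± 0.09 at 48 h (adjusted p = 0.755).

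Siglec1 encodes CD169, a sialic acid binding lectin that marks resident macrophages of the marrow. It had the lowest p of all 70 tests. Its levels were 8.96 and 9.16 in controls, 8.95 at 4 h, 9.13 at 9 h, 8.77 and 8.91 at 12 h, 9.00 and 8.87 at 15 h, and 8.62 and 8.77 at 48 h. In the smaller run it was 9.99 in the control and 9.68 and 9.70 at 9 h. Both 48 h arrays and both 12 h arrays lay below both controls, and the 15 h arrays overlapped with them. At 48 h the log2 fold change was -0.43 ± 0.11, a level 1.34 times lower, with an unadjusted p of 0.00289 and an adjusted p of 0.145 (limma), which did not pass. The 95% interval ran from -0.67 to -0.18.

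The same gene was lower at 12 h by a fitted -0.28 ± 0.11 (adjusted p = 0.307, limma) and at 12 and 15 h together by -0.23 ± 0.09 (adjusted p = 0.282), both with an unadjusted p under 0.05. At 9 h the runs disagreed: the 9 h array of the larger run lay 0.07 above its control mean, while the 9 h arrays of the smaller run lay -0.30 from their control. That control enters all fits through the run term, and in the larger run alone the 48 h value was -0.36, with an adjusted p of 0.280. Without 48 h replicate 1 it was -0.35 and without 48 h replicate 2 it was -0.50, so both arrays lay in the same direction.

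**Figure D3:**
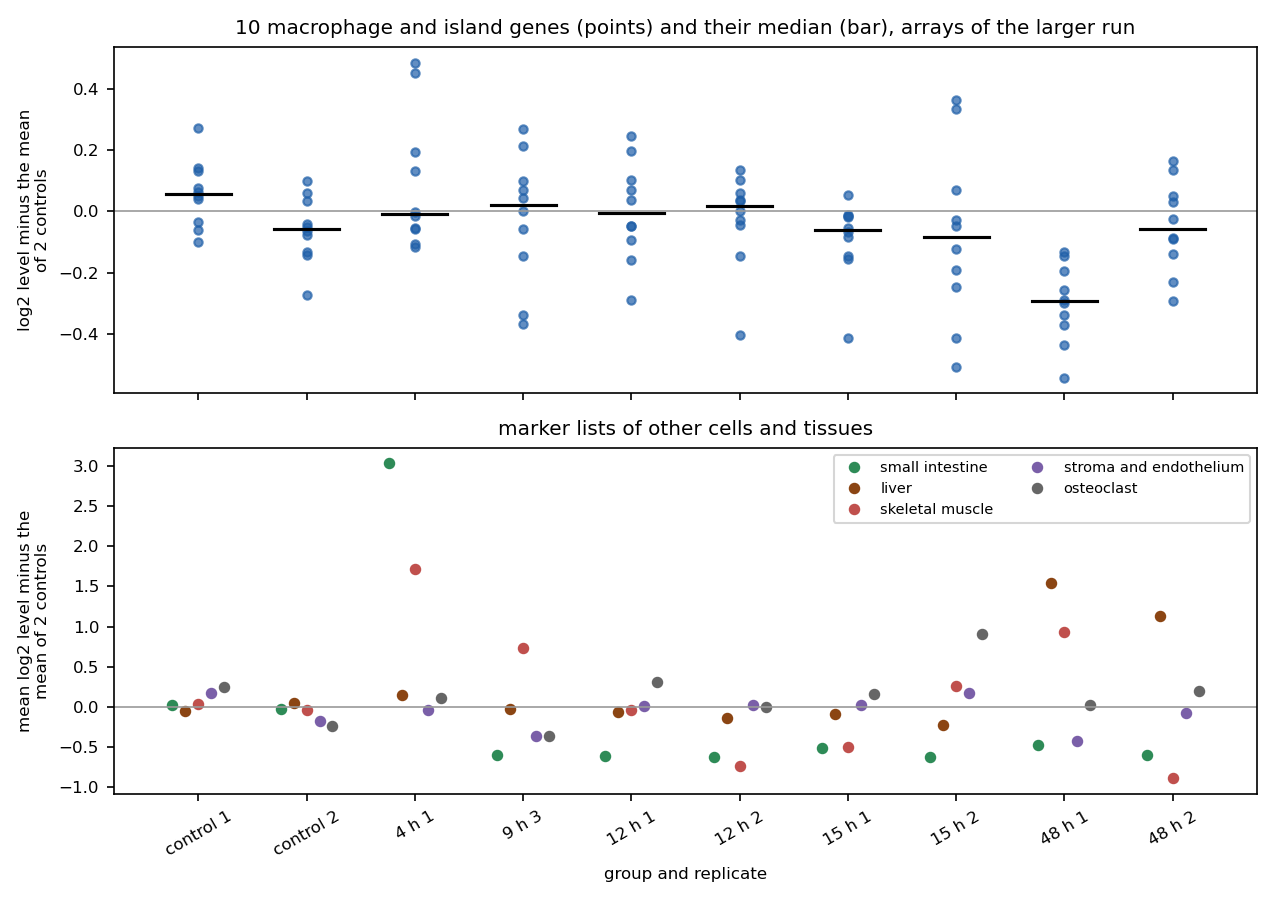
Above, the difference of each of the 10 genes from the mean of the 2 larger-run controls on every array of that run (points) with the median (bar), in log2 units; below, the mean difference of 5 marker lists of other cells and tissues on the same arrays. On 48 h replicate 1 all 10 points lie below 0, and the liver list is high on both 48 h arrays and the small intestine list on the 4 h array.

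Heme handling was the role with the widest spread. Hmox1 encodes heme oxygenase-1, which opens the heme ring and frees its iron. It measured 11.03 and 10.48 in controls, 11.21 at 4 h, 10.39 at 9 h, 10.60 and 10.35 at 12 h, 10.34 and 10.25 at 15 h, and 10.42 and 10.53 at 48 h. In the smaller run the control was 11.62 and the 9 h arrays 11.45 and 11.27. The 2 controls of the larger run stood 0.54 log2 units apart, farther than any of its fitted changes with time. The 4 h array was above both, and the 9 and 15 h arrays were below both.

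At 15 h the Hmox1 log2 fold change was -0.44 ± 0.15, with an unadjusted p of 0.0131 and an adjusted p of 0.278 (limma), and for 12 and 15 h together it was -0.35 ± 0.13 (adjusted p = 0.235). At 9 h it was -0.31 ± 0.13 (adjusted p = 0.806), with the 9 h arrays below the controls of their own run in both runs. At 4 h, with 1 array, it was 0.47 ± 0.18 (adjusted p = 0.261). These values turned on the controls. Without control replicate 1, the higher one, the 4 h value was 0.68 with an adjusted p of 0.0191, which passed, and without control replicate 2 it was 0.29 with an adjusted p of 0.604; over 22 alternatives the adjusted p ran from 0.0191 to 0.943. The 15 h value was -0.23 without control replicate 1 and -0.62 without control replicate 2. The value for 12 and 15 h together was -0.14 and -0.53 in the same 2 fits.

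Cd163 encodes the receptor by which macrophages take up haemoglobin bound to haptoglobin. Levels were 7.74 and 7.46 in controls, 8.08 at 4 h, 7.87 at 9 h, 7.70 and 7.73 at 12 h, 7.52 and 7.19 at 15 h, and 7.31 and 7.51 at 48 h. The smaller run gave 9.20 for the control and 9.23 and 8.97 at 9 h. The 4 h and 9 h arrays of the larger run were above both controls, and 1 array each at 15 and 48 h was below both. At 4 h the log2 fold change was 0.42 ± 0.18 (unadjusted p = 0.0385, adjusted p = 0.297, limma), on the array with small intestine and muscle transcripts; without control replicate 2 it was 0.28. At 15 h it was -0.31 ± 0.14 (adjusted p = 0.415), and -0.47 without 15 h replicate 1 and -0.14 without replicate 2. At 48 h it was -0.25 ± 0.14 (adjusted p = 0.467), between -0.39 without control replicate 2 and -0.15 without 48 h replicate 1.

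Haptoglobin itself, Hp, which neutrophil precursors and the liver make, was 11.27 and 10.97 in controls, 11.76 at 4 h, 11.32 to 11.42 at 12 and 15 h, and 10.85 and 11.08 at 48 h. The 4 h value was 0.59 ± 0.14 against control (adjusted p = 0.0679, limma), and 48 h against 12 and 15 h together gave -0.42 ± 0.10 (adjusted p = 0.0832). Against control the 48 h value was -0.20 ± 0.11 (adjusted p = 0.463), on the arrays with high liver markers. Blvrb, a biliverdin reductase abundant in red cells, was 12.48 and 12.74 in controls and 12.99 and 12.95 at 48 h, above every other array of the run, with a log2 fold change of 0.37 ± 0.09 (adjusted p = 0.119). Slc40a1, ferroportin, which exports iron from macrophages and erythroblasts, was -0.12 ± 0.09 at 48 h (adjusted p = 0.552) and 0.17 ± 0.11 at 4 h (adjusted p = 0.480). None of these passed.

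Spic encodes a transcription factor needed for the macrophages of the splenic red pulp and for their marrow counterparts, and heme induces it. It varied least over the larger run, by 0.37 log2 units: 9.31 and 9.37 in controls, 9.28 at 4 h, 9.00 at 9 h, 9.29 and 9.30 at 12 h, 9.33 and 9.09 at 15 h, and 9.04 and 9.25 at 48 h. In the smaller run it was 10.08 in the control and 10.20 and 9.89 at 9 h, on either side of it. The 12 h and 48 h arrays were below both controls, by little at 12 h. The lowest array was that at 9 h in the larger run. There the summed log2 signal of stromal and endothelial markers, 13.8, was also the lowest of that run. By mean log2 level those markers were at 8.95 there and lower, at 8.89, on 48 h replicate 1. The fitted values were -0.19 ± 0.11 at 9 h and -0.14 ± 0.12 at 48 h, with adjusted p-values of 0.810 and 0.647 (limma).

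Mrc1 encodes the mannose receptor CD206, a scavenger receptor of resident macrophages and of sinusoidal endothelium. It was 9.81 and 9.73 in controls, 9.76 at 4 h, 9.87 at 9 h, 10.01 and 9.87 at 12 h, 9.82 and 9.84 at 15 h, and 9.39 and 9.90 at 48 h. The smaller run gave 10.54 for the control and 10.55 and 10.38 at 9 h. All 12 and 15 h arrays lay above both controls, at 15 h by little, and the 48 h arrays lay on both sides. No fitted value passed: 0.14 ± 0.14 at 12 h (adjusted p = 0.674, limma), -0.15 ± 0.14 at 48 h (adjusted p = 0.666) and -0.24 ± 0.12 for 48 h against 12 and 15 h together (adjusted p = 0.330). Both 48 h values turned on replicate 1: without it they were 0.10 and 0.02, and without replicate 2 they were -0.40 and -0.49.

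C1qa encodes the A chain of complement C1q, which macrophages make and which tags dying cells for engulfment. Its levels were 9.08 and 8.82 in controls, 9.08 at 4 h, 8.80 at 9 h, 9.15 and 8.95 at 12 h, 8.93 and 8.83 at 15 h, and 8.41 and 8.81 at 48 h, and 10.11 on all 3 smaller-run arrays. Both 48 h arrays were below both controls and below all 12 and 15 h arrays, replicate 2 only just. The log2 difference at 48 h was -0.35 ± 0.12 from 12 and 15 h together (unadjusted p = 0.0121, adjusted p = 0.150, limma) and -0.31 ± 0.13 from control (adjusted p = 0.313). It came mostly from replicate 1: without it the values were -0.15 and -0.11, and without replicate 2 they were -0.56 and -0.52.

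The other chains, C1qb and C1qc, are encoded next to C1qa, the 3 being neighbouring genes. C1qb was 11.85 and 11.79 in controls and 11.37 and 11.73 at 48 h, and C1qc 10.63 and 10.72 in controls and 10.22 and 10.60 at 48 h. All 3 chains were lowest on 48 h replicate 1, at -0.54, -0.44 and -0.46 from the control mean for C1qa, C1qb and C1qc. On replicate 2 they were at -0.14, -0.09 and -0.08. The fitted values at 48 h were -0.23 ± 0.11 for C1qb (adjusted p = 0.373, limma) and -0.25 ± 0.11 for C1qc (adjusted p = 0.335). Before 48 h the C1qa level did not follow the other chains on 12 h replicate 1, where it lay 0.20 above the control mean and C1qb and C1qc lay below it.

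**Figure D4:**
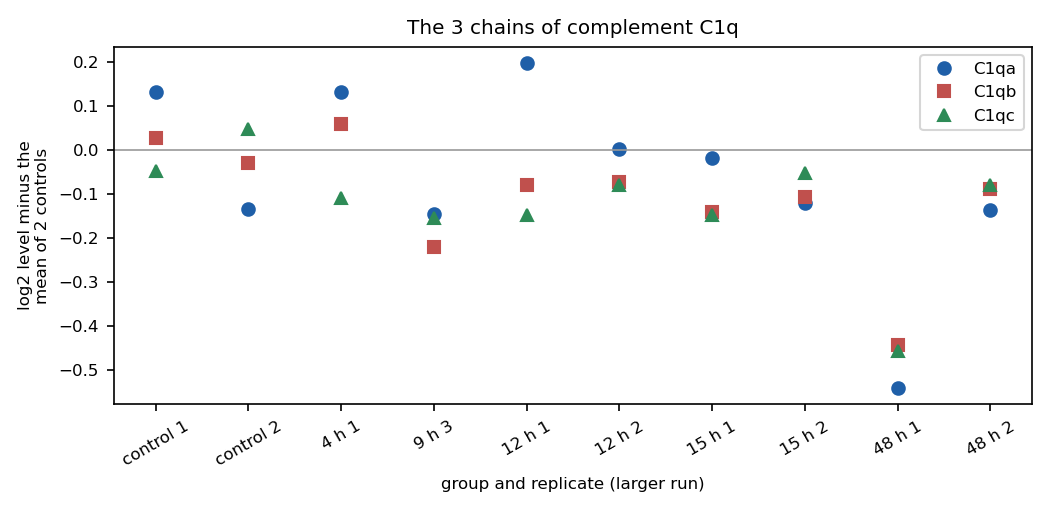
Log2 level of the 3 C1q chains on each array of the larger run, minus the mean of the 2 controls. The chains lie within about 0.5 log2 units of the controls, lowest on 48 h replicate 1, while 48 h replicate 2 lies close to the earlier times.

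The 10 genes together leaned down at 48 h. Against control all 10 had a log2 fold change below 0, where 46.5% of all genes did, with a median of -0.15 against 0.01 for all genes. The groups did not overlap for 3 of the 10 (Siglec1, Spic and C1qa), all lower, where 16.0% of all genes lay lower without overlap and 24.2% higher. Against 12 and 15 h together 9 of 10 were below 0 (44.5% of all genes), with a median of -0.11 against 0.02, and 2 (Siglec1 and C1qa) lay lower without overlap (12.0%) and 0 higher (15.4%). This lean rested on 48 h replicate 1. That array held the lowest larger-run value of 7 of the 10 genes, and of 10.3% of all genes. All 10 lay below the control mean on it, by a median of -0.29, where 41.9% of all genes did (median 0.036). On replicate 2, 6 of 10 were below, with a median of -0.06, where 49.3% of all genes were (median 0.003).

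Without 48 h replicate 1, 6 of 10 genes were below 0 against control, with a median of -0.03, and 5 of 10 against 12 and 15 h together, with a median of 0.01. Replicate 1 also differed from replicate 2 in muscle markers, with a log2 summed signal of 13.03 against 11.04, and in stromal and endothelial markers, with 13.9 against 14.3. The liver list was at 12.4 and 12.1 over the 2 arrays, against 9.83 and 9.97 in controls. Whether these transcripts bear on the low macrophage values of replicate 1 was not tested. Some lists of other blood cells also lay below 0 at 48 h against control. They were 10 of 10 neutrophil genes (median -0.13), 9 of 9 T and NK cell genes (median -0.28) and 8 of 9 B lineage genes (median -0.27). In each of them 0 passed. Those with an unadjusted p under 0.05 on the low side numbered 3, 2 and 5 in these lists, where 4.68% of all genes were lower. The dendritic cell list lay nearer 0, with 5 of 8 genes below 0 (median -0.04). Against 12 and 15 h together, 1 of 8 dendritic cell genes was below 0 (median 0.14). Whether the macrophage genes differ from these lists was not tested.

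At the other times no common direction appeared. At 4 h 6 of 10 genes were below 0 (50.8% of all genes), and 4 lay above both controls of the run and 4 below, where 35.7% and 35.5% of all genes did so with this 1 array. At 9 h 6 of 10 were below 0 (45.0% of all genes). Outside the controls of both runs lay 0 genes on the high side (6.29% of all genes) and 1, Hmox1, on the low side (5.22%). At 12 h 3 of 10 were below 0 (52.1%), with Mrc1 higher without overlap (20.1%) and Siglec1 and Spic lower (20.0%). At 15 h 7 of 10 were below 0 (52.0%), with Mrc1 higher (20.3%) and Hmox1 lower (19.2%). With 12 and 15 h together 6 of 10 were below 0 (52.7%), and outside the controls lay Mrc1 on the high side (12.0%) and 0 genes on the low side (10.2%). The comparisons share the control arrays, so their values are not independent.

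Lists of genes that work with these were read in the same fit, each given by counts and median. The list of C1q chains and other macrophage genes (24 measured) held the only related gene that passed in any comparison. It was Msr1, a scavenger receptor, at 4 h, where 1.99% of all genes passed. The 4 h group was a lone array, with high small intestine and skeletal muscle markers. The count over all genes at 4 h also moved with the processing. Msr1 measured 9.11 on the 4 h array and 8.70 and 8.62 in controls, a log2 fold change of 0.44 ± 0.09 (adjusted p = 0.0306, limma). At 15 h against control 17 of the 24 list genes were below 0 (52.0% of all genes), with a median of -0.08, and 0 passed. Without overlap 12 of 24 lay lower (19.2% of all genes) and 0 higher (20.3%). The mean log2 level of the list was 9.42 and 9.36 in controls, 9.27 and 9.26 at 15 h, and 9.13 and 9.28 at 48 h. At 48 h against control 23 of 24 were below 0 (46.5% of all genes), with a median of -0.15. There 0 passed, and 7 were lower and 0 higher at an unadjusted p under 0.05, where 4.68% of all genes were lower and 9.31% higher. Monocyte genes (13 measured) were all below 0 at 48 h, with a median of -0.18, 4 lower at an unadjusted p under 0.05 and 0 passing. Their log2 summed signal was 13.9 and 14.0 at 48 h and 14.2 and 14.3 in controls.

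Ligands of Csf1r and macrophage transcription factors (11 measured) had a median of -0.16 at 48 h, 10 of 11 below 0 and 0 passing. Among them Csf1, the ligand made by stroma, was 8.55 and 8.17 in controls and 8.01 and 8.15 at 48 h (log2 fold change -0.24 ± 0.12, adjusted p = 0.417, limma). Il34, the second ligand, was 7.65 on the 4 h array and 7.38 and 7.29 in controls (0.31 ± 0.10, adjusted p = 0.178), and its 15 h value was -0.24 ± 0.08 (adjusted p = 0.276). Partners in island adhesion, engulfment and signalling (17 measured) had a median of -0.11 at 48 h, with 3 higher and 4 lower at an unadjusted p under 0.05. Of all genes 9.31% were higher and 4.68% lower by that measure. Haemoglobin, heme and iron handling genes (21 measured) had a median of 0.12 at 48 h, with 6 higher and 2 lower unadjusted, to be read against the same shares. In both lists 0 passed in any of the 7 comparisons.

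The pattern over the 10 larger-run arrays was compared with that of 6978 genes whose range there was at least 0.5 log2 units, taking for each gene the 3 with the highest Pearson correlation. Csf1r, Adgre1, Cd68, Vcam1 and Spic had smaller ranges and could not be picked themselves; of the others among the 10 genes, none was among the 30 picks. For Siglec1 they were Lilr4b (0.915), Ly6i (0.905) and Epsti1 (0.898), and for C1qa Ndfip1 (0.983), Dpm3 (0.961) and Id2 (0.954). Hmox1 was most like Cryl1 (0.930), Gpd1 (0.923) and Fmo2 (0.916). Cd163 was most like Olfr59 (0.938), Gzma (0.932) and Ms4a4b (0.906). For Csf1r the picks were Olfml2b (0.970), Tmem255a (0.930) and Tenm3 (0.922), and Tmem255a was also among those of Cd68 (0.885), after Hey2 (0.903) and before Igkv4-55 (0.880).

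Mrc1 was most like Tlr4 (0.928), Itpripl2 (0.923) and Ccnyl1 (0.915), and Vcam1 most like Ephx1 (0.928), Ccl9 (0.919) and Lgals3 (0.913). The picks for Adgre1 were Cd300ld (0.902), Pde3b (0.888) and Gm9968 (0.883), and those for Spic were Mir196a-2 (0.912), Tex13a (0.850) and Mir199a-1 (0.812). High values are found among so many candidates over 10 arrays, and they describe these arrays only. Among themselves the 10 genes were loosely tied, with a median correlation of 0.32 over 45 pairs. The pairs above 0.7 numbered 4: Cd68 with Csf1r (0.804), C1qa with Vcam1 (0.798), C1qa with Mrc1 (0.775) and Hmox1 with Vcam1 (0.745). There were 9 pairs below 0, of which Cd163 with Cd68 (-0.40) was the lowest.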

How the data were processed

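RNA of 13 marrow samples was measured on 1-colour Affymetrix Mouse Gene 1.0 ST arrays. The deposited table holds log2 levels. RMA was the authors' method, per the submitters' processing notes; its version, and which arrays were normalized together, are not given in the sources used here. Samples were grouped by the time in their labels, and the run of title numbers was taken as a batch. The labels do not say that replicates are separate animals, so p-values measure the spread between samples, which may be technical.

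Of 35557 probe sets, 21789 had 1 gene symbol in the platform annotation, 1621 several and 12147 were not listed. For 21698 of those with 1 symbol, the symbol was matched by Entrez identifier. For the 999 genes with several probe sets the one with the highest mean was kept, which left 19938 genes. From these values limma 3.58.1 (R 4.3.3) fitted 6 groups and a fixed run term to all 13 arrays (6 residual and 4.62 prior degrees of freedom); the lone 4 h array was taken to vary as the remaining groups do. Comparisons within the run term set each time against control, and 48 h against 12 and 15 h together. P-values were adjusted by Benjamini-Hochberg over all genes, with a threshold of 0.05. The fit was tested on simulated data. RMA gives no detection call, and precision is limited by the number of arrays.

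The 10 genes and all lists were chosen with earlier results of these data known, those of small intestine, liver and muscle in particular. Named besides the 10 were: of each related list up to 4 genes past the threshold, C1qb, C1qc, Csf1, Il34, Slc40a1, Blvrb, Hp, Itga4 and Maea always, the brightest markers of other cells where these move with a result, and the 3 genes most like each of the 10. Fabp2, Apoa1, S100a8, Cd79a and Klf1 were named as examples after their values were seen. Alternatives changed the run term, the arrays, the filter, the normalization and the moderation. Plots used matplotlib 3.10.9 (Python 3.11.15). Scanner files were not used here.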

Additional observations from a re-analysis of the deposited data

How the results depend on the processing

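The count of the 10 genes past the threshold was 0 in all 7 comparisons under all alternatives run, except 1 at 4 h (Hmox1) without control replicate 1; leaving out each array in turn gave 0 to 1 at 4 h and 0 to 0 in the other comparisons. Leaving out the 4 h array gives no 4 h value. No paired analysis was possible because the titles carry numbers of unstated meaning, none of them shared between groups. The count over all genes, 397, 19, 21, 51, 136, 75 and 165 at 4, 9, 12, 15, 12 and 15 together, 48 h and 48 h against 12 and 15 h, moved more; the cause was not tested. Without a run term it was 78, 6, 5, 5, 6, 11 and 11 in that order. With the run as a random block it was 32, 112, 81, 228, 143 and 457 from 9 h on. The larger run alone gave 10, 22, 37, 31 and 55 from 12 h on. Without dim genes it was 130 at 4 h, 34 at 12 h, 14 at 48 h and 66 in the last comparison. Testing every probe set gave 6, 7, 15 and 38 from 9 h to 12 and 15 h together and 87 in the last. Trend and robust moderation gave 65 at 12 h, 231 at 12 and 15 h together, 134 at 48 h and 278 in the last. Array weights gave 1852, 9, 4, 6, 9, 14 and 50. The groups of each comparison alone gave 199, 3, 2, 9, 27, 13 and 499. Without the 4 h array, the 48 h arrays and 9 h replicate 1, an alternative chosen after seeing the data, it was 8, 7, 23 and 45 from 9 h to 12 and 15 h together. Leaving out each array in turn gave 293 to 1359 at 4 h, 5 to 75 at 9 h, 6 to 414 at 12 h, 6 to 505 at 15 h, 18 to 1014 at 12 and 15 h together, 31 to 104 at 48 h and 28 to 1265 in the last comparison. The most calls came without control replicate 1 at 4, 12 and 15 h, at both times together and in the last comparison, without control replicate 3 at 9 h and without 48 h replicate 2 at 48 h; the fewest came without control replicate 2 at 4 h and at 12 and 15 h together, without 48 h replicate 1 in both 48 h comparisons, and without 9 h replicate 3, 12 h replicate 1 and 15 h replicate 2 at those times. Signal over background cannot be read from these values.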
